A study of Mus musculus with 24 samples.

Results

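The 10 genes described here belong to the integrated stress response of the mouse liver: Atf4, the transcription factor at its centre, its relatives Atf5, Cebpg and Ddit3, the regulators Trib3, Chac1 and Sesn2, and the amino acid genes Asns, Psat1 and Cars. They were chosen by symbol, and each matched 1 of the 23284 gene symbols in the files in all 24 libraries. In this response a stress-activated kinase phosphorylates the initiation factor eIF2. General protein synthesis then slows, while the Atf4 mRNA is translated more, so the level of that mRNA is a poor guide to the amount of ATF4 protein. ATF4 pairs with C/EBP-family proteins on a composite DNA element and switches on genes for amino acid synthesis and uptake, for charging of tRNA, and for feedback on the response itself. In liver the pathway is known for its reaction to a shortage of dietary amino acids, and insulin signalling through mTORC1 is also known to raise ATF4.

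RNA was sequenced from livers of C57BL/6 mice that carried floxed FoxO1 alleles (FoxO1lox/lox), with 3 libraries in each of 8 groups. In the acute model, floxed mice were injected with an AAV8 virus whose TBG promoter drove Cre (Cre) or eGFP (GFP), and livers were collected on day 21. In the constitutive model, floxed mice that also carried an albumin-Cre transgene (FoxO1-/- in the labels, KO) were set against floxed mice listed without a virus (WT). In each model and genotype 1 group was refed for 1 h after 4 h of fasting (refed) and the other was fasted for 4 h (fasted). Both promoters act in hepatocytes, and whether other liver cells kept Foxo1 cannot be told from bulk tissue. The GFP livers carry a virus that the WT livers do not. Age is not stated in the labels, which also do not say whether each library came from its own animal. The p-values therefore reflect the spread between these libraries alone, part or all of which may be technical.

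Values are FPKM, the number of sequenced fragments per length of transcript and per depth of library. The width of the authors' deposited intervals implies the number of fragments behind each value, and from these the depth came to 6300000 to 7600000 fragments in 8 acute libraries, 12900000 to 15700000 in the other 4 (Cre refed 1, Cre fasted 1, GFP refed 3 and GFP fasted 3) and 12100000 to 13800000 in the constitutive libraries. Foxo1 (chromosome 3, 52268337 to 52350109, mm10) lay between 0.212 and 0.571 FPKM in the 12 knockout libraries, against 4.21 to 6.81 FPKM in the 12 control libraries. The 6 hepatocyte markers (Alb, Apoa1, Ttr, Cps1, Serpina1c and Hnf4a) summed to between 46854 and 68616 FPKM in every library.

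Sequence around the start sites is shown for the 3 members whose RefSeq promoter window (GRCm38.p6, 250 bases before to 50 after the start) held the C/EBP-ATF response element, searched as TGATGNAA on both strands. The element is in capitals, written as it reads on the gene's own strand.
Asns, chr6:7693210-7693329 (-): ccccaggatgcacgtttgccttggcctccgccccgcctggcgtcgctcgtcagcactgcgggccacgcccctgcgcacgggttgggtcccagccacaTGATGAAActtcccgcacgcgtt
Chac1, chr2:119350992-119351111 (+): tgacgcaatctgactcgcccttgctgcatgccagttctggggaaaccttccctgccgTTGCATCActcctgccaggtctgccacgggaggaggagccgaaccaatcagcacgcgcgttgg
Trib3, chr2:152344028-152344057 (-): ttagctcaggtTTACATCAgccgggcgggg
The Asns element lay at -23 to -16 from the start site. The Chac1 element lay at -193 to -186 and the Trib3 element at 15 to 22, and in both of these the match was on the opposite strand. Asns also held GTTACA, the letters of the neighbouring nutrient-sensing element known from the human gene, with 3 letters before the start site and 3 from it onward. Windows were found for 9 of the 10 members, Cars being the other. Of all 32851 promoter windows, 1304 (3.97%) held TGATGNAA and 2709 (8.25%) held GTTACA. The FoxO motif GTAAACA, present in 3.65% of all windows, was in none of the members' 11 windows. None of these motifs overlapped another in the members' windows. The matches describe letters only, and binding was not measured here.

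The members spanned a wide range of levels. Among the transcription factors, Atf5 (chromosome 7, 44812256 to 44816658), a factor whose mRNA is also translated under stress, had a median of 81.9 FPKM over the 24 libraries and a range of 58.7 to 146. Atf4 (chromosome 15, 80255184 to 80257541) had a median of 57.1 FPKM and a range of 40.1 to 72.0. Cebpg (chromosome 7, 35046422 to 35056566), a C/EBP partner of ATF4, had a median of 11.5 and a range of 7.84 to 15.9 FPKM. Ddit3 (chromosome 10, 127290793 to 127296288), which encodes the stress factor CHOP, had a median of 6.23 and a range of 3.30 to 13.8 FPKM.

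The regulators and most of the amino acid genes were lower. Trib3 (chromosome 2, 152337425 to 152344060), a pseudokinase that feeds back on ATF4 and binds Akt, had a median of 4.28 FPKM. Sesn2 (chromosome 4, 132492807 to 132510456), a leucine-sensing inhibitor of mTORC1, had a median of 1.31 FPKM, and Chac1 (chromosome 2, 119351242 to 119354327), an enzyme that degrades glutathione, had one of 1.57 FPKM. Cars (chromosome 7, 143557230 to 143600090), the cytosolic cysteinyl-tRNA synthetase, had a median of 8.25 FPKM. Asns (chromosome 6, 7675171 to 7693182), which makes asparagine from aspartate and glutamine, had a median of 1.28 FPKM and the widest span of the 10, a ratio of 57.1 between its highest library at 16.7 and its lowest at 0.292 FPKM. Atf4 had the narrowest, a ratio of 1.80. Psat1 (chromosome 19, 15905123 to 15925059), an enzyme of serine synthesis, was below 1 FPKM in all 24 libraries (0.159 to 0.947), so it did not pass the filter of at least 1 FPKM in at least 3 libraries, and tests cover the other 9 members.

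**Figure D1:**
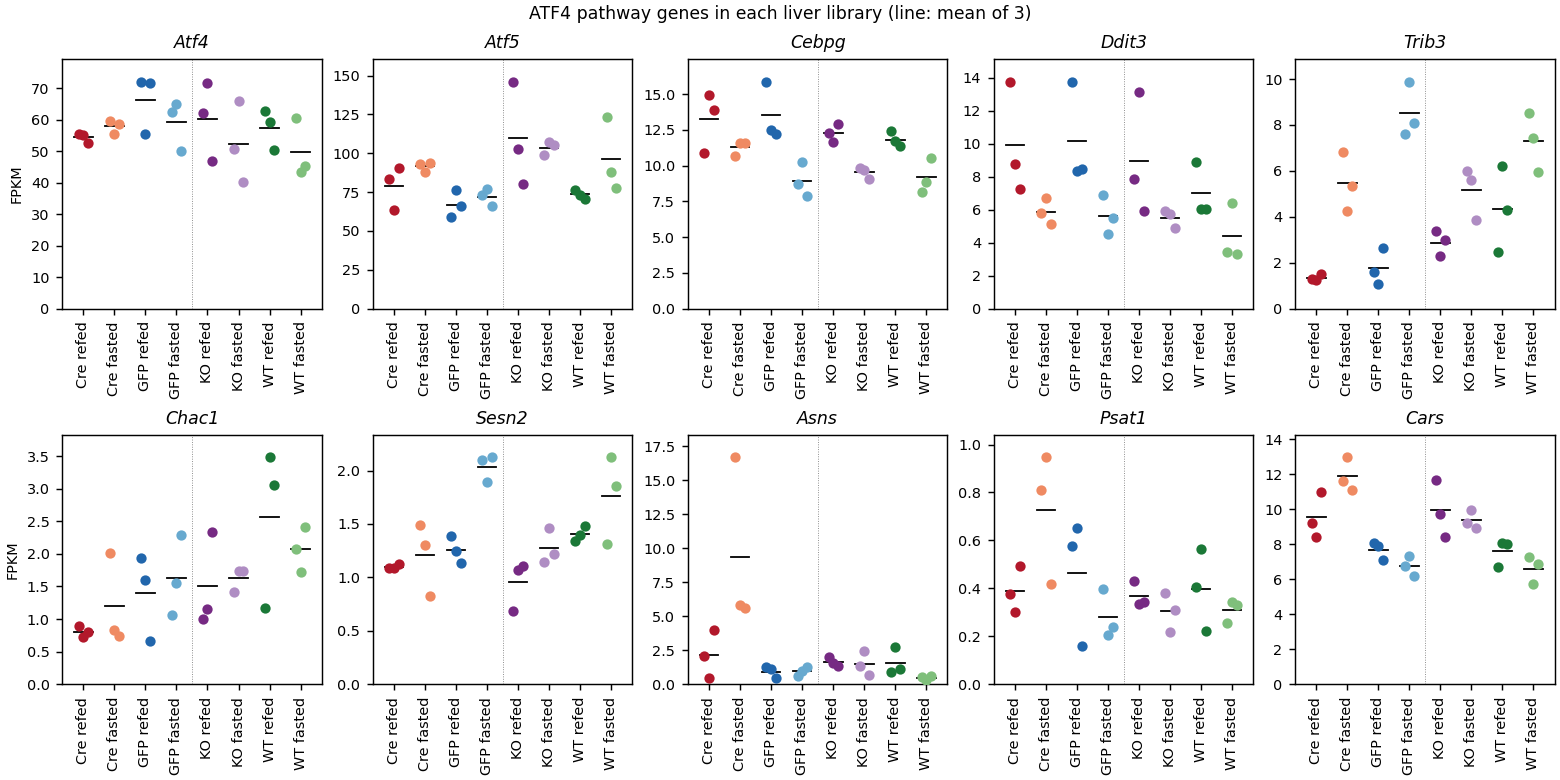
FPKM of the 10 members in each of the 24 libraries, 1 panel a gene with its own axis, grouped by model, genotype and feeding state (points are libraries, bars are group means). Cars shows 12 knockout libraries above the 12 control libraries, Asns stands out in the 3 Cre fasted libraries, and the Trib3 group means are lowest in the 2 acute refed groups.

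Among the 8 groups, ordered by mean, neighbours overlapped in all 7 pairs for Atf4, Atf5, Ddit3, Trib3, Chac1, Sesn2 and Psat1. For the other members 6 of 7 neighbouring pairs overlapped. The gap lay between Cre fasted and Cre refed livers for Asns, between Cre fasted and KO fasted livers for Cebpg, and between KO fasted and GFP refed livers for Cars, which parted all 4 knockout groups from all 4 control groups.

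Acute deletion in fasted livers was compared to ask which members differed 21 days after Cre. Cars was higher in all 3 Cre fasted libraries, at 11.6, 13.0 and 11.1 FPKM, against 6.74, 7.31 and 6.20 FPKM in GFP fasted livers. The groups did not overlap, and the means were 11.9 ± 0.978 and 6.75 ± 0.556 FPKM (SD, n = 3 each), a 1.76-fold rise. The change on the log2(FPKM + 1) scale was 0.73 ± 0.10 (SE; limma, adjusted p = 0.0117 over 10452 genes). Of the 9 tested members 1, Cars, was called (Benjamini-Hochberg adjusted p under 0.05), where 0.297% of all genes were called. That share is 31 genes, and 7 were called without Cre fasted 2, and 18, 14 and 11 without GFP fasted 1, 2 and 3. The Cars call was lost without Cre fasted 2, GFP fasted 1 or GFP fasted 3 (adjusted p up to 0.0781). In the 8 shallower libraries alone the log2 difference was 0.70, with adjusted p = 0.191.

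Asns had the largest ratio between these groups among the members, but did not pass the test. Its levels were 16.7, 5.82 and 5.60 FPKM in Cre fasted livers, against 0.584, 0.995 and 1.29 FPKM in GFP fasted livers. The lowest Cre library stood above the highest GFP library, and the means of 9.37 ± 6.34 and 0.957 ± 0.355 FPKM (SD, n = 3 each) gave a ratio of 9.79. The log2 difference was 2.26 ± 0.45 (SE; limma, adjusted p = 0.0641, 95% interval 1.28 to 3.24). The deposited intervals imply 533, 96.2 and 104 fragments in the Cre libraries and 9, 17 and 46.7 in the GFP libraries. The highest library was also the deeper one of its group. Between the deeper libraries alone the ratio was 12.9, and between the means of the shallower ones it was 7.23. When the 2 groups were fitted alone, the adjusted p was 0.0492. Exocrine pancreas is rich in Asns, and 7 acinar genes summed to between 0.805 and 1.19 FPKM in Cre fasted libraries and between 0.497 and 0.798 FPKM in GFP fasted libraries, with Cpa1, Pnlip, Ctrb1, Prss2 and Try4 at 0 in both groups. Whether pancreatic RNA had a part in the Asns difference was not tested.

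None of the other tested members was called in the fasted acute comparison. Atf5 averaged 91.6 FPKM in Cre livers and 72.1 FPKM in GFP livers (log2 0.34 ± 0.13, adjusted p = 0.305 by limma), and Cebpg 11.3 and 8.95 FPKM (0.31 ± 0.13, 0.373). Sesn2 had 1.49, 1.31 and 0.824 FPKM in Cre livers, against 2.10, 1.89 and 2.12 FPKM in GFP livers. Its groups did not overlap, and its log2 difference was -0.47 ± 0.11 (limma, adjusted p = 0.119). Trib3 averaged 5.47 FPKM in Cre livers and 8.53 FPKM in GFP livers (-0.57 ± 0.20, limma, adjusted p = 0.256). Atf4, at 57.9 and 59.1 FPKM, differed by -0.02 ± 0.12, with a 95% interval from -0.28 to 0.24. Psat1 had 0.809, 0.947 and 0.420 FPKM in Cre livers, against 0.398, 0.205 and 0.240 FPKM in GFP livers, from 28.2 implied fragments at most. Its groups did not overlap, and its means of 0.725 and 0.281 FPKM had a ratio of 2.58. With no filter its log2 difference was 0.42 ± 0.15 (limma, adjusted p = 0.378). The groups of 6 of the 9 tested members did not overlap here, and those of 18.7% of all genes did not. Endothelial markers moved as well: all 7 were below 0, none called, and they summed to 18.0 to 35.1 FPKM in Cre fasted livers against 28.3 to 56.1 FPKM in GFP fasted livers. Their part in these differences was not tested, and in bulk tissue fewer cells of a type and less RNA per cell cannot be told apart.

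**Figure D2:**
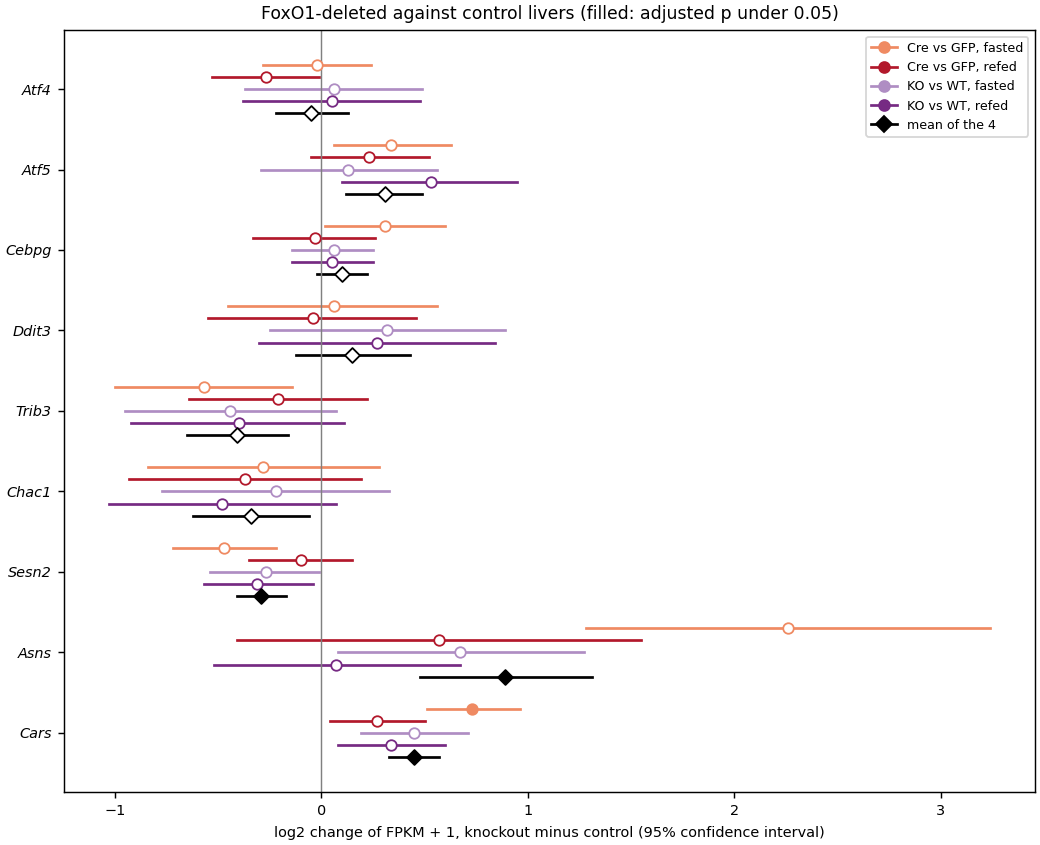
Knockout minus control difference on the log2(FPKM + 1) scale for the 9 tested members in each of the 4 comparisons and their mean, with 95% intervals from limma. Cars lies to the right of 0 in all 5, and the widest interval is that of Asns in acute livers.

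After refeeding, acute knockout livers kept Cars above control livers in every library. Cars was at 9.21, 8.44 and 11.0 FPKM in Cre refed livers, against 8.05, 7.92 and 7.11 FPKM in GFP refed livers. The groups did not overlap, but the log2 difference of 0.27 ± 0.10 did not pass (limma, adjusted p = 0.455). The groups of 2 of the 10 members, and of 12.7% of all genes, did not overlap in this comparison. Asns was at 2.04, 0.458 and 4.01 FPKM in Cre refed livers and at 1.26, 1.09 and 0.442 FPKM in GFP refed livers, with overlap (0.57 ± 0.45, limma, adjusted p = 0.783). Of the 9 members, 0 were called by limma, where 0.105% of all genes were called. An unadjusted p under 0.05 was reached by 2 members (Cars and Atf4) and by 9.09% of all genes. Atf4 averaged 54.5 FPKM in Cre refed livers and 66.3 FPKM in GFP refed livers (-0.27 ± 0.12, limma, adjusted p = 0.519).

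In the constitutive model Cars again lay higher in each KO library. It was at 9.23, 9.95 and 8.91 FPKM in KO fasted livers, against 7.25, 5.72 and 6.87 FPKM in WT fasted livers, and at 11.7, 9.71 and 8.41 FPKM in KO refed livers, against 6.70, 8.08 and 8.02 FPKM in WT refed livers. Neither pair of groups overlapped, and the log2 differences were 0.45 ± 0.12 fasted and 0.34 ± 0.12 refed (limma, adjusted p = 0.346 and 0.413). In fasted livers of this model the groups of 2 of the 10 members, and of 12.2% of all genes, did not overlap. In refed livers these were 3 of the 10 members and 15.3% of all genes. Asns had 1.34, 2.43 and 0.643 FPKM in KO fasted livers, against 0.548, 0.292 and 0.637 FPKM in WT fasted livers. These groups were separated by 0.643 against 0.637 FPKM, and the log2 difference was 0.67 ± 0.27 (limma, adjusted p = 0.673). In refed livers Asns overlapped, at 1.99, 1.52 and 1.35 FPKM in KO and 0.893, 2.73 and 1.15 FPKM in WT livers (0.07 ± 0.27, adjusted p = 0.932 by limma).

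Other members of the constitutive model did not pass either. Sesn2 was at 0.689, 1.07 and 1.11 FPKM in KO refed livers, against 1.34, 1.40 and 1.48 FPKM in WT refed livers, without overlap (-0.31 ± 0.12, limma, adjusted p = 0.425). Atf5 was at 146, 103 and 80.0 FPKM in KO refed livers, against 76.5, 73.5 and 70.7 FPKM in WT refed livers, also without overlap (0.53 ± 0.20, limma, adjusted p = 0.413). Of the 9 members limma called 0 in fasted livers, where 0.0964% of all genes were called. There 3 members and 6.56% of all genes had an unadjusted p under 0.05. Limma called 0 members in refed livers, where 0.0289% of all genes were called, and 3 members and 10.8% of all genes had an unadjusted p under 0.05. Markers of other liver cells moved with the fasted comparison: 7 of 7 endothelial, 6 of 6 Kupffer cell and macrophage and 7 of 7 stellate markers were above 0, none called. Endothelial markers summed to 40.2 to 48.8 FPKM in KO fasted livers against 29.4 to 33.7 FPKM in WT fasted livers, the opposite direction to the acute model. In refed livers 4 of the 7 endothelial markers were above 0. The part of these markers in the member differences was not tested.

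Averaging the 4 knockout against control comparisons in the joint fit of 24 libraries, a contrast added after the data were seen, gave 3 called members of 9. In this contrast limma called 3.14% of 10682 genes. Cars was higher (log2 0.45 ± 0.056, limma, adjusted p = 9.88e-05): the 12 knockout libraries lay between 8.41 and 13.0 FPKM with a median of 9.83, against 5.72 to 8.08 FPKM with a median of 7.18 in the 12 controls. Over the 10682 genes, 2 (0.0187%) were higher in the knockouts without overlap in all 4 comparisons, Cars among them, and 29 (0.271%) were lower. Asns was higher (0.89 ± 0.20, limma, adjusted p = 0.0162), with the libraries ranging from 0.458 to 16.7 FPKM (median 2.02) in knockouts and from 0.292 to 2.73 FPKM (median 0.944) in controls. The sets overlapped, and over the shallower acute libraries with all constitutive ones the adjusted p was 0.0744. The Asns log2 differences behind this mean were 2.26 in fasted and 0.57 in refed acute livers. In constitutive livers they were 0.67 fasted and 0.07 refed, with 0 of 6 KO libraries above every WT library. The Cre fasted libraries were not left out together. Sesn2 was lower (-0.29 ± 0.059, limma, adjusted p = 0.00835), at 0.689 to 1.49 FPKM (median 1.12) in knockouts and 1.13 to 2.12 FPKM (median 1.44) in controls, with 7 knockout libraries below every control library. None of these 3 calls was lost when any of the 24 libraries was omitted, with adjusted p up to 0.000356 for Cars, 0.0375 for Asns and 0.0200 for Sesn2.

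The other 6 tested members did not pass in the mean contrast. Trib3 (-0.41 ± 0.12, limma, adjusted p = 0.0632) and Atf5 (0.31 ± 0.089, 0.0640) lay just outside the threshold. Atf5 passed without Cre refed 2, KO refed 3 or WT fasted 1 (adjusted p down to 0.0157), and Trib3 without GFP refed 2 or WT refed 1 (down to 0.0165). Chac1 (-0.34 ± 0.13, limma, adjusted p = 0.213), Ddit3 (0.15 ± 0.13, 0.639), Cebpg (0.10 ± 0.057, 0.448) and Atf4 (-0.05 ± 0.086, 0.857) were further from it. The interval for Atf4 ran from -0.22 to 0.13. The members had a median of 0.10, against 0.00 for all genes, with 5 members above 0 and 4 below. Of 6 hepatocyte markers 1 was called in this contrast, Apoa1, which was lower (-0.20 ± 0.047, limma, adjusted p = 0.0229). An unadjusted p under 0.05 was reached by 4 of the 6 and by 15.7% of all genes. Of the endothelial, Kupffer cell and macrophage, and stellate markers 0 were called. The part of the markers in the member differences was not tested.

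**Figure D3:**
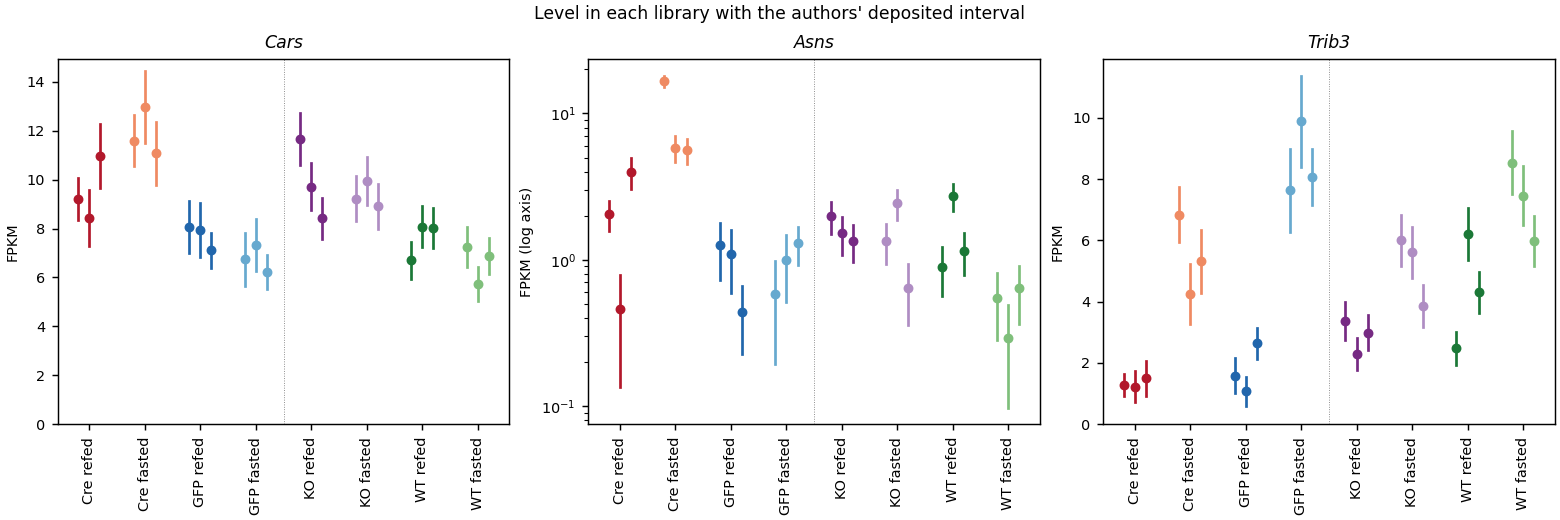
FPKM of Cars, Asns (log axis) and Trib3 in each library with the authors' deposited intervals, which cover counting error only. The Asns interval of Cre fasted 1, 15.2 to 18.1 FPKM, is far above those of the GFP fasted libraries, and in Cars the 12 knockout points stand above the 12 control points while some intervals meet.

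Refeeding was compared with fasting in each genotype to ask how the members responded 1 h after food. In GFP control livers Trib3 was at 1.58, 1.07 and 2.64 FPKM when refed, against 7.63, 9.88 and 8.07 FPKM when fasted. The groups were far apart, and the means of 1.77 ± 0.802 and 8.53 ± 1.20 FPKM (SD, n = 3 each) gave a 4.83-fold fall. Its log2 change was -1.82 ± 0.20 (SE; limma, adjusted p = 0.00125), and leaving out any of the 6 libraries did not end the call. Cebpg rose to 15.9, 12.5 and 12.2 FPKM in GFP refed livers, against 8.74, 10.3 and 7.84 FPKM in GFP fasted livers (0.54 ± 0.13, limma, adjusted p = 0.0362). Sesn2 fell to 1.38, 1.25 and 1.13 FPKM in GFP refed livers, against 2.10, 1.89 and 2.12 FPKM in GFP fasted livers (-0.43 ± 0.11, limma, adjusted p = 0.0474). Neither gene's groups overlapped. The groups of 4 of the 10 members, and of 27.2% of all genes, did not overlap in this comparison. The call of Cebpg was lost without GFP refed 1 or 2 or GFP fasted 1 or 3 (adjusted p up to 0.118) and that of Sesn2 without any of the 6 libraries (up to 0.126). These 3 of 9 members were called where limma called 6.56% of all genes. Markers of other liver cells were higher with them, 6 of 6 Kupffer cell and macrophage (median log2 0.66), 6 of 7 stellate (0.41) and 7 of 7 endothelial markers (0.25) being above 0 with none called, and their part was not tested. Median-of-ratios scaling left the Cebpg change at 0.45 with adjusted p = 0.0723 and turned the split of all calls from 503 higher and 183 lower to 251 higher and 300 lower.

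In acute knockout livers Trib3 fell with refeeding as well. It was at 1.27, 1.23 and 1.49 FPKM in Cre refed livers, against 6.84, 4.25 and 5.32 FPKM in Cre fasted livers, with no overlap. The means of 1.33 ± 0.143 and 5.47 ± 1.30 FPKM (SD, n = 3 each) gave a 4.11-fold fall and a log2 change of -1.46 ± 0.20 (limma, adjusted p = 0.00596). This call held with each library left out but not over the shallower libraries (-1.29, adjusted p = 0.0550). Asns fell to 2.04, 0.458 and 4.01 FPKM in Cre refed livers, against 16.7, 5.82 and 5.60 FPKM in Cre fasted livers. No refed library reached a fasted one, and the log2 change was -1.72 ± 0.45 (limma, adjusted p = 0.0494). The groups of 4 of the 10 members, and of 30.4% of all genes, did not overlap in Cre livers. The Asns call was lost without any of Cre fasted 1, 2 or 3 or Cre refed 1 or 2 (adjusted p up to 0.134), and it uses the same Cre fasted libraries as the deletion comparison. These 2 of 9 members were called where limma called 5.44% of all genes, 449 higher and 120 lower, or 163 and 214 with median-of-ratios scaling. Stellate markers summed to 135 to 167 FPKM in Cre refed livers against 63.9 to 99.3 FPKM in Cre fasted livers, with 7 of 7 above 0 and 2 called, and endothelial markers to 40.1 to 62.5 against 18.0 to 35.1 FPKM, with 7 of 7 above 0 and 2 called. Their part in the member changes was not tested.

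**Figure D4:**
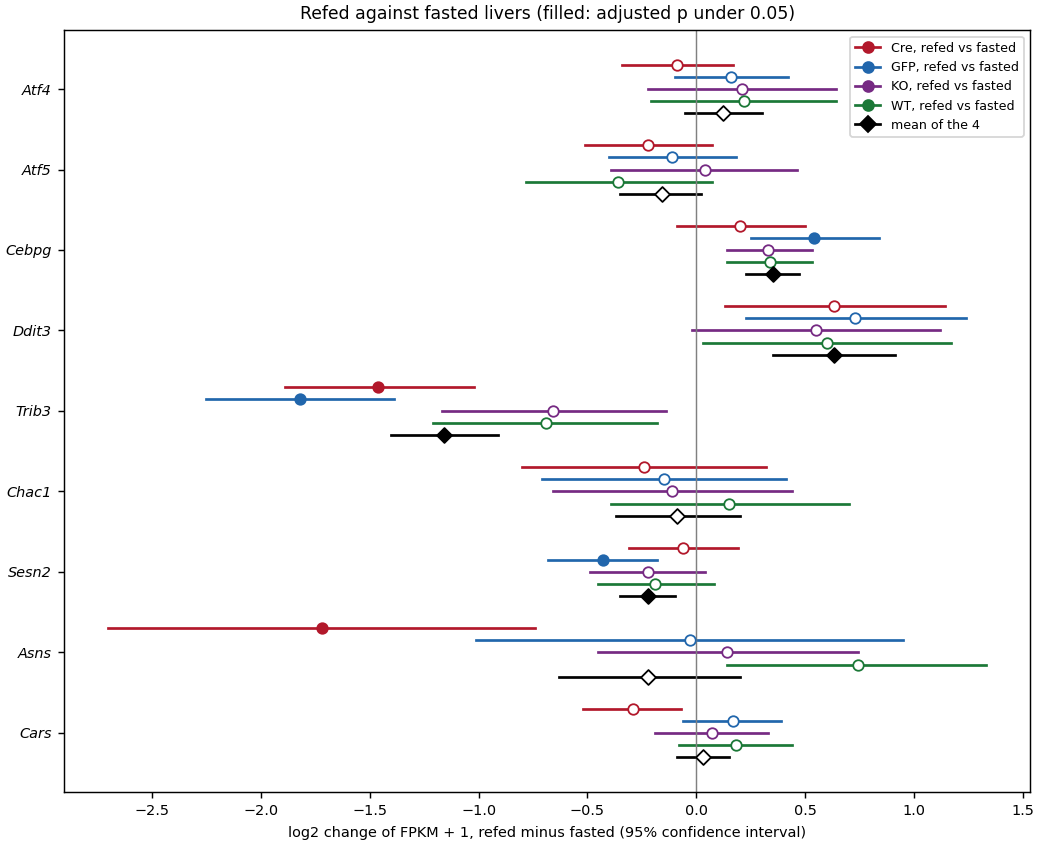
Refed minus fasted difference on the log2(FPKM + 1) scale for the 9 tested members in each of the 4 comparisons and their mean, with 95% intervals from limma. Trib3 lies to the left of 0 in all 5 and Ddit3 and Cebpg to the right, while Asns lies on both sides.

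In the constitutive model the members' responses to refeeding did not pass. Trib3 was at 3.37, 2.28 and 2.99 FPKM in KO refed livers, against 6.00, 5.61 and 3.87 FPKM in KO fasted livers, without overlap (-0.66 ± 0.24, limma, adjusted p = 0.109). In WT livers it was at 2.47, 6.20 and 4.30 FPKM when refed and 8.54, 7.45 and 5.97 FPKM when fasted, where WT refed 2 exceeded 1 fasted library (-0.69 ± 0.24, limma, adjusted p = 0.201). Cebpg was at 12.3, 11.6 and 12.9 FPKM in KO refed livers, against 9.86, 9.69 and 9.07 FPKM in KO fasted livers (0.33 ± 0.089, limma, adjusted p = 0.0510). Median-of-ratios scaling brought that to 0.37 with adjusted p = 0.0302. In WT livers Cebpg was at 12.4, 11.7 and 11.3 FPKM when refed, against 8.12, 8.87 and 10.5 FPKM when fasted (0.34 ± 0.089, limma, adjusted p = 0.114). Asns was at 0.893, 2.73 and 1.15 FPKM in WT refed livers, against 0.548, 0.292 and 0.637 FPKM in WT fasted livers, also without overlap (0.74 ± 0.27, limma, adjusted p = 0.232). Of the 9 members limma called 0 in KO livers, where 5.68% of all genes were called. There 2 members and 25.5% of all genes had an unadjusted p under 0.05. It called 0 members in WT livers, where 0.318% of all genes were called, and 4 members and 15.6% of all genes had an unadjusted p under 0.05. The groups of 3 of the 10 members did not overlap in KO livers, and those of 30.3% of all genes did not. In WT livers these were 3 of the 10 members and 19.7% of all genes.

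Over the mean of the 4 refeeding comparisons, also added after the data were seen, 4 of 9 members were called, where limma called 30.3% of 10682 genes. Trib3 fell (log2 -1.16 ± 0.12, limma, adjusted p = 1.45e-06), with 12 refed libraries at 1.07 to 6.20 FPKM (median 2.38) and 12 fasted libraries at 3.87 to 9.88 FPKM (median 6.42), and 10 refed libraries below every fasted one. Ddit3 rose (0.63 ± 0.13, limma, adjusted p = 0.00147), at 5.90 to 13.8 FPKM (median 8.41) refed and 3.30 to 6.90 FPKM (median 5.60) fasted. In single comparisons its log2 differences ran from 0.55 to 0.73, none called. Cebpg rose (0.35 ± 0.057, limma, adjusted p = 0.000154), with 10 of 12 refed libraries above every fasted one. Sesn2 fell (-0.22 ± 0.059, limma, adjusted p = 0.00706, or 0.0552 over the shallower acute libraries with all constitutive ones), at 0.689 to 1.48 FPKM refed and 0.824 to 2.12 FPKM fasted. None of these 4 calls was lost when any of the 24 libraries was omitted.

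The called members split by direction, with Ddit3 and Cebpg higher and Trib3 and Sesn2 lower after refeeding. Atf4 differed by 0.12 ± 0.086 (limma, adjusted p = 0.283, interval -0.05 to 0.30), Atf5 by -0.16 ± 0.089 (0.169), Chac1 by -0.09 ± 0.13 (0.662), Asns by -0.22 ± 0.20 (0.432) and Cars by 0.03 ± 0.056 (0.727). The median over the members was -0.09, against 0.04 for all genes. Markers of other liver cells were higher in the same contrast, with 6 of 7 stellate, 4 of 7 endothelial and 2 of 6 Kupffer cell and macrophage markers called, all higher. By group, endothelial markers above 0 were 7 of 7 in Cre (median 0.78) and GFP livers (0.25). They were 4 of 7 in WT (0.09) and 1 of 7 in KO livers (-0.17). Of 6 hepatocyte markers 1 was called, Hnf4a, also higher (0.27 ± 0.041). The part of these markers in the member changes was not tested. In the annotation Ddit3 shares 68 bases with Mars on the opposite strand, and Atf5 shares 571 with Nup62 and 272 with Il4i1. The Sesn2 locus shares 6089 bases with Gm12981, and the Cars locus holds Mir7064 and the pseudogene Gm15580. Cebpg shares 1140 bases with Gm44836 and 617 with Gm45094 on its own strand, and 353 with Gm45095 on the opposite strand. Psat1 shares 556 with the pseudogene Gm3329. How reads were split between such genes, and whether they were counted by strand, is not stated in the labels or notes.

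Whether refeeding acted differently in knockout livers was tested by the interaction. In acute livers it was -1.69 ± 0.63 for Asns (SE; limma, adjusted p = 0.715), -0.46 ± 0.15 for Cars (0.669) and 0.37 ± 0.16 for Sesn2 (0.749), the 3 members of 9 with an unadjusted p under 0.05, which 6.60% of all genes had. Limma called 0 members, where 0.0287% of all genes were called. For Trib3 the acute interaction was 0.36 ± 0.28, with an interval from -0.25 to 0.97. In constitutive livers limma called 0 members, where 0% of all genes were called. An unadjusted p under 0.05 was found for 0 members and 4.40% of all genes, and Asns had the largest interaction at -0.60 ± 0.39 (adjusted p = 0.963).

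Differences between the models were also tested directly, as acute minus constitutive. For Asns the deletion effect in fasted livers differed by 1.59 ± 0.56 (limma, adjusted p = 0.444) and the refeeding effect in knockout livers by -1.86 ± 0.56 (adjusted p = 0.0920). For Trib3 the refeeding effect differed by -1.12 ± 0.33 in control livers (limma, adjusted p = 0.297) and -0.80 ± 0.33 in knockout livers (0.184). The Cars deletion effect differed by 0.28 ± 0.16 in fasted livers (limma, adjusted p = 0.726) and -0.07 ± 0.16 in refed livers (0.903). Limma called 0 members in all 4 of these tests. For deletion fasted, deletion refed, refeeding in control and refeeding in knockout livers it called 0%, 0%, 0.00936% and 0.253% of all genes. An unadjusted p under 0.05 was found for 1, 0, 1 and 3 members and for 7.85%, 10.9%, 9.41% and 20.2% of all genes. In the last of these tests, median-of-ratios scaling moved the median of all genes by 0.126 on the log2 scale and the calls from 22 higher and 5 lower to 34 higher and 109 lower.

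The other genes of the pathway, in 7 lists, were counted in the mean contrasts. In the deletion mean limma called 1.16% of all genes higher and 1.98% lower. Of 19 cytosolic aminoacyl-tRNA synthetases, the enzymes that charge tRNA as Cars does, knockout livers had 3 called higher and 0 lower, with 18 of 19 above 0 and a median of 0.07, against 0.00 for all genes. The 3 were Mars (log2 0.18 ± 0.042, limma, adjusted p = 0.0209), Tars (0.21 ± 0.054, 0.0398) and Lars (0.18 ± 0.045, 0.0348), each a smaller change than the 0.45 of Cars. In single comparisons no synthetase was called, and in acute livers 17 of 19 fasted (median 0.16) and 18 of 19 refed (0.14) were above 0. In constitutive livers 14 of 19 fasted (0.03) and 10 of 19 refed (0.02) were above 0, where all genes had medians of 0.02 and -0.01. Of 8 tested serine, folate and amino acid synthesis enzymes, 0 were called higher and 1 lower, the aspartate aminotransferase Got1 (-0.46 ± 0.12, limma, adjusted p = 0.0376). Of 5 tested amino acid transporters, 0 were called higher and 1 lower, the glutamine carrier Slc38a2 (-0.38 ± 0.10, limma, adjusted p = 0.0426). Of 10 other tested ATF4 targets, 1 was called higher and 0 lower, the hormone Fgf21 (0.58 ± 0.12, limma, adjusted p = 0.00763). Of the 4 single comparisons Fgf21 was called in fasted acute livers and not in the other 3. The filter kept 10 of these targets in the acute model and 9 in the constitutive model, so Fgf21 may not have been tested in constitutive livers. In fasted acute livers it averaged 3.23 FPKM with Cre and 0.330 FPKM with GFP (1.67 ± 0.19, limma, adjusted p = 0.00384). Of 9 tested bZIP partners, 0 were called higher and 1 lower, Maf (-0.24 ± 0.061, limma, adjusted p = 0.0365). Among 15 eIF2 kinases, subunits and regulators and 15 ER chaperone and unfolded protein response genes, 0 were called in either direction, with 2 and 0 at an unadjusted p under 0.05.

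The same lists were counted in the mean refeeding contrast, in which limma called 19.9% of all genes higher and 10.4% lower. These are 2128 and 1108 genes, and with median-of-ratios scaling 1538 and 1663. Of 19 tRNA synthetases 9 were called higher and 0 lower (median 0.11, against 0.04 for all genes), among them Rars (0.34 ± 0.056), Farsa (0.30 ± 0.040) and Iars (0.24 ± 0.048). Their median was 0.16 in Cre and 0.20 in GFP livers, where all genes had 0.08 in both. In KO and WT livers it was 0.05 and 0.04, where all genes had -0.02 and 0.01. Of 15 eIF2 control genes 8 were higher and 0 lower (median 0.16), led by Eif2b4 (0.34 ± 0.061) and Eif2b3 (0.33 ± 0.066), subunits of the exchange factor that phosphorylated eIF2 inhibits. Of 15 ER chaperone and unfolded protein response genes 9 were higher and 0 lower, with all 15 above 0 and a median of 0.26, among them Creld2 (0.84 ± 0.23) and Dnajb9 (0.51 ± 0.11). By group, 15 of 15 were above 0 in Cre (median 0.53) and GFP livers (0.42) and 12 of 15 in KO livers (0.19), but 7 of 15 in WT livers (0.00). Of 8 synthesis enzymes 1 was higher, the alanine aminotransferase Gpt2 (0.20 ± 0.068), and 2 were lower, the cysteine pathway enzymes Cth (-0.29 ± 0.058) and Cbs (-0.23 ± 0.061). Of 10 other ATF4 targets 1 was higher, the mTORC1 inhibitor Ddit4 (0.58 ± 0.22), and 1 lower, the stress hormone Gdf15 (-0.71 ± 0.20). Of 9 bZIP partners 1 was higher (Cebpd, 0.37 ± 0.12) and 2 were lower (Fos, -0.44 ± 0.12, and Jun, -0.45 ± 0.16), and of 5 transporters 0 were called, with 0 at an unadjusted p under 0.05. Of the single refeeding comparisons, Jun (-1.91 ± 0.40), Fos (-1.48 ± 0.29) and Gdf15 (-1.85 ± 0.43) were called in Cre livers and in no other. Fos averaged 0.214 FPKM in Cre refed and 2.51 FPKM in Cre fasted livers. Cebpd and Ddit4 were called in none of them. The filter kept 9 bZIP partners in the acute model but 7 in the constitutive model, and 10 and 9 of the other ATF4 targets. A gene without a call in KO or WT livers may therefore not have been tested there.

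**Figure D5:**
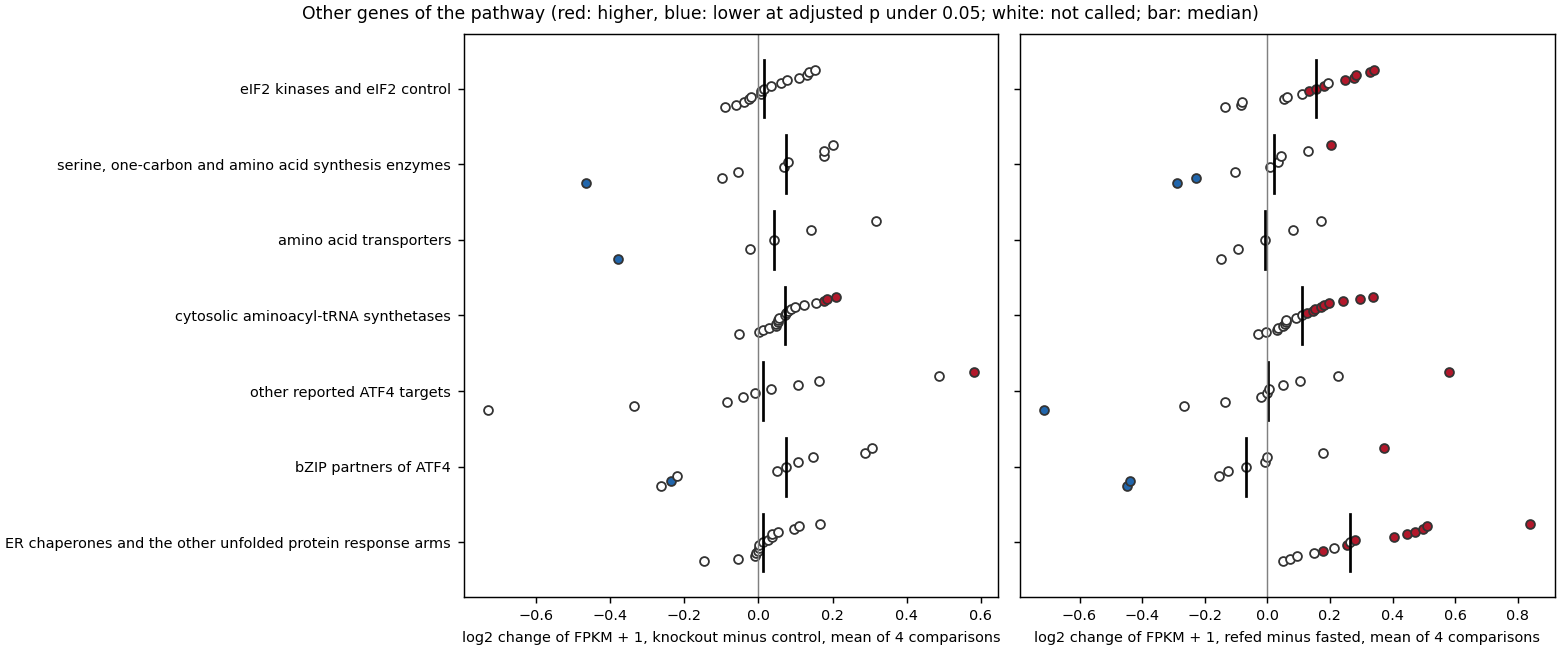
Log2(FPKM + 1) differences of each tested gene in 7 lists of the pathway, for knockout minus control and refed minus fasted, each the mean of 4 comparisons (points are genes, filled where limma called them, lines are list medians). In refed minus fasted all 15 ER chaperone and unfolded protein response genes lie above 0, with a median of 0.26, and in knockout minus control 18 of 19 tRNA synthetases do, with a median of 0.07.

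The members did not follow a single profile over the libraries. With each gene centred on its model mean, the mean z-scored profile of the 9 tested members correlated over the 24 libraries with Asns (Pearson's r = 0.802), Cars (0.628) and Atf4 (0.519), which are part of it, and hardly with Trib3 (0.158), Ddit3 (0.136) or Sesn2 (-0.161). The genes outside the members most like it were Prdx5 (0.688), Fcf1 (0.657), Thnsl2 (0.639), Frs3 (0.639), Rhbg (0.632) and Fbxo6 (0.620). Libraries of a group share their treatment and their spread in depth, so these values are a description.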

How the data were processed

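Each deposited table holds 1 FPKM value for each of 23746 loci, in the authors' own normalization. Per the submitters' processing notes the tools were HISAT2, Cufflinks and Cuffdiff (versions not given) on build mm10, and per the labels' protocols the library kit was stranded. Groups and replicate numbers come from the sample titles. The 14 loci marked failed in any library were left out. Deposited interval half-widths were read as 2 × FPKM divided by the root of the fragment number: 61.0% to 64.4% of the implied numbers up to 30 were whole to within 0.05, against 10% by chance.

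FPKM was tested as log2(FPKM + 1), which understates changes of low genes, with limma 3.58.1 in R 4.3.3 (trended eBayes on group contrasts), checked on simulated data. Genes with FPKM of at least 1 in at least 3 fitted libraries were kept, which left 10452 acute, 10375 constitutive and 10682 joint-fit genes. Two-sided p-values were adjusted by Benjamini-Hochberg across every kept gene and called at 0.05. Folds are ratios of mean FPKM.

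All members are named, with Foxo1, up to 4 called genes a list, and the 6 genes with the most similar profile. Members and lists were chosen with earlier results of these data known. Alternatives were median-of-ratios scaling, a pseudocount of 0.1, no filter, the compared groups alone, the replicate block, calls at 0.01, the 8 shallower acute libraries, and each library left out. Sequences are from RefSeq (GRCm38.p6) and gene overlaps from GENCODE.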

Additional observations from a re-analysis of the deposited data

How the results depend on the processing

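Of 2399 alternative values for 144 pairs of a member and a comparison, 2347 kept their side of the threshold, 43 lost the call and 9 gained it, and no called value changed direction. In Cre fasted against GFP fasted livers, the 1 called member became 0 at a threshold of 0.01 and over the 8 shallower libraries, and 2 when these groups were fitted alone. In GFP refed against GFP fasted livers, 3 became 1 at 0.01, with no filter, with these groups alone and over the shallower libraries. In Cre refed against Cre fasted livers, 2 became 1 at 0.01, with a pseudocount of 0.1, with no filter, with median-of-ratios scaling and with these groups alone, and 0 over the shallower libraries. In KO refed against KO fasted livers, 0 became 1 with median-of-ratios scaling. The cause of these moves was not tested. With each library left out in turn, the counts ranged from 0 to 1, 1 to 2 and 1 to 2 in the first 3 of these, from 3 to 4 in the mean of deletion, from 4 to 5 in the mean of refeeding, and stayed at 0 in the other 11 comparisons. Counts over all genes moved more when a library was left out: 7 to 36 (31 with all) in Cre fasted against GFP fasted, 3 to 66 (11) in Cre refed against GFP refed, 1 to 7 (10) in KO fasted against WT fasted and 2 to 13 (3) in KO refed against WT refed livers. For refeeding they were 57 to 428 (569) in Cre, 293 to 578 (686) in GFP, 71 to 740 (589) in KO and 6 to 32 (33) in WT livers, and 0 to 216 (27) for the model difference in knockout livers.

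Replicate numbers were not taken to pair the libraries, since not every same-numbered pair correlated above 0.1. That rule asks for every pair, so it cannot tell whether some same-numbered libraries shared a batch. The deeper acute libraries were replicate 1 in Cre and replicate 3 in GFP livers, so a block by replicate number does not follow depth there. Correlations of the 18 same-numbered pairs ranged from -0.349 to 0.378 in the acute model (median -0.018, 5 over 0.1), where the 36 other pairs had a median of -0.015 and 14 over 0.1. In the constitutive model they ranged from -0.156 to 0.281 (median 0.086, 8 over 0.1), against a median of -0.042 and 6 over 0.1 for the other pairs. With the replicate block the count of called members in Cre refed against Cre fasted livers was 1, without Asns (adjusted p = 0.0691 by limma), and Ddit3 passed in GFP refed against GFP fasted livers (0.0434) where Cebpg and Sesn2 did not (0.0621 and 0.0676). Depth limits Psat1, Asns and Chac1 most, with as few as 2.74, 8 and 9.59 implied fragments in a library.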
